A study of Homo sapiens with 3 samples.

Results

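AsPC-1 is an established human pancreatic cancer cell line, and si#2 is 1 of the 2 small interfering RNAs (siRNAs) that the study used to knock down LINC00941, a long intergenic non-coding RNA (lncRNA) gene of chromosome 12. The comparison described here set the library of AsPC-1 cells given si#2 against the library of the same line given a negative control siRNA (siNC). Its members were all genes of the deposited table whose mean of the si#2 and siNC read counts was at least 100, which were 12097 of the 16463 genes listed. Both cultures had the wild-type genotype of the line as labelled, received 200 nM siRNA and were collected 24 h later, on day 1, and total RNA depleted of ribosomal RNA was sequenced. A culture given the other siRNA, si#1, was treated in the same way and serves here as a second reading of the same knockdown against the same siNC library. Each condition is 1 library of 1 cell line, so no difference has a replicate check and no p-value is given, and the 95% intervals printed beside fold changes (exact, Clopper-Pearson) cover counting error only.

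An siRNA is a short duplex whose guide strand is loaded into an Argonaute protein, pairs along its whole length with a target RNA and leads to its cleavage. A guide can also lower other RNAs that pair with only its seed, bases 2 to 8, mostly in 3′ untranslated regions (UTRs), in the way that a microRNA does. LINC00941 is a lncRNA reported in several carcinomas, and the study asked which genes lie downstream of it in pancreatic cancer cells, where the RAS to ERK cascade is usually active.

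The target of si#2 and that of si#1 are shown because the libraries differ by which of these sites, if any, the siRNA was designed to match. The si#2 target matched chr12:30801840-30801858 of GRCh38 on the plus strand, in exon 5 of the Ensembl canonical LINC00941 transcript (GENCODE), at bases 593 to 611 of its 1355. The si#1 target lies upstream of it at chr12:30800581-30800599, in exon 4, at bases 433 to 451. Capitals mark the letters that pair with bases 2 to 8 of each guide, the sequences are written 5′ to 3′ as in the transcript, and each of these 7-letter matches occurs 1 time in the transcript.
si#2 target: ccattcagcctTGAACATt
si#1 target: gcctccatattCATGAACt
The si#2 site with its flanks has the 19 target bases in capitals.
si#2 site: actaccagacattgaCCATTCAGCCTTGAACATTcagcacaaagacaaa

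With si#2, LINC00941 itself had 273 reads (2.04 TPM, the read density of a transcript scaled to a fixed library total), against 1551 reads (13.5 TPM) with siNC, and si#1 left 214 reads. The log2 fold change of a gene is the si#2 value minus the siNC value of log2(count + 1), once the libraries were quantile-normalized over all listed genes, and a gene was called when it was 1 or more, or -1 or less, which is 2-fold. On this scale LINC00941 fell by 2.56 (95% interval -2.75 to -2.38) with si#2, which left 0.169 of the siNC level, and its log2 fold change with si#1 was -2.89. The target RNA was thus lowered as labelled, although not to 0. Of the 9 measured genes of the list for its neighbourhood on 12p11, DENND5B was the other one to fall 2-fold, with 3482 reads with si#2 against 8431 with siNC (log2 fold change -1.24), but it was under 2-fold on the centred TPM ratio (-0.76) and with a trend in GC content and length removed (-0.79). CAPRIN2, the RNA-binding protein gene next to LINC00941, had 6314 reads with si#2 against 4867 with siNC (0.41).

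**Figure D1:**
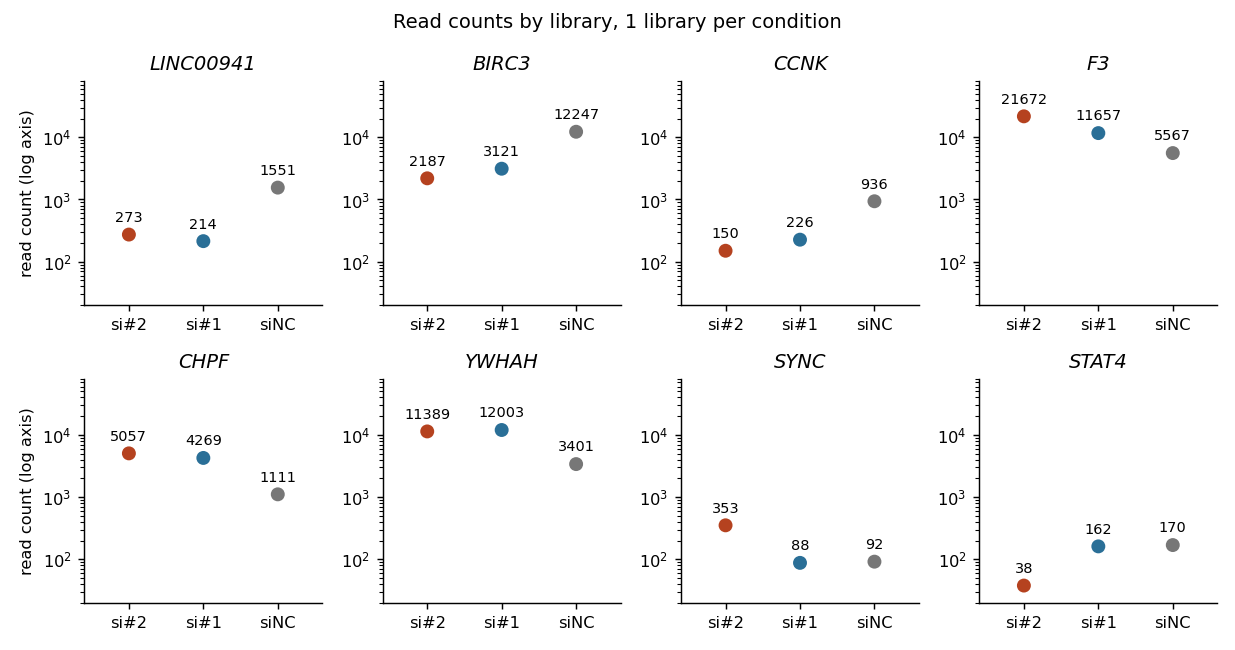
Read counts of 8 genes in the si#2, si#1 and siNC libraries, on a log axis, with 1 point per library. LINC00941, BIRC3 and CCNK were lower, and F3, CHPF and YWHAH higher, in both siRNA libraries than in siNC, whereas SYNC (353 reads with si#2, 88 with si#1 and 92 with siNC) and STAT4 (38, 162 and 170) stood apart with si#2.

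The libraries had similar depth. Reads assigned to the listed genes summed to 90867405 with si#2, 92510692 with si#1 and 88690997 with siNC, and the members held 99.9% of them in each library. The 10 most abundant genes took 12.7% of the reads with si#2, against 10.5% with siNC. Of the marker lists, that of duct and epithelium had the highest summed level, although some of its members were low and some mesenchymal markers were expressed. With siNC the duct markers KRT7 and SOX9 had 1.94 and 7.27 TPM, and with si#2 3.34 and 3.91 TPM. Of 22 duct and epithelial markers 19 were listed, led by keratin 8 (KRT8, 3889 TPM with si#2 and 3385 TPM with siNC), and their summed level was 11807 TPM with si#2 against 10331 TPM with siNC, while CFTR and KRT20 were among those not listed. Of 12 acinar markers 1 was listed and of 10 endocrine markers 2 were, summing to 7.29 and 6.34 TPM with si#2 against 8.82 and 10.5 TPM with siNC, with PRSS1, INS and GCG not listed. Of 12 immune and endothelial markers 4 were listed (22.9 TPM with si#2 against 30.0 TPM with siNC), and PTPRC and PECAM1 were not. Of 19 fibroblast and mesenchymal markers 10 were listed, with 1638 TPM with si#2 against 1978 TPM with siNC, most of it from vimentin (VIM). LUM (132 TPM with si#2 against 168 TPM with siNC), SNAI2 (12.9 against 14.4) and ZEB1 (9.77 against 11.6) were expressed too, while COL1A1, COL1A2 and PDGFRB were not listed.

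With si#2, 6487 of the 12097 genes lay above 0 and 5586 below, and the median log2 fold change of all of them was 0.04. Past 2-fold, 259 of the 12097 genes rose (2.14%) and 524 fell (4.33%). The counting interval excluded no change in all 783 of these genes, 6.47% of those analysed. At 2-fold and a mean count of at least 100 it could not do otherwise, so this adds nothing to the calls. The interval lay wholly past 2-fold for 136 rises and 378 falls. Changes of 4-fold or more were few, with 8 up and 34 down. On the TPM ratio, centred on the median of these genes, 229 of these rises and 514 of these falls passed 2-fold as well, where 2.01% of all members rose and 4.94% fell on that ratio. On quantile-normalized log2(TPM + 1), where the added 1 shrinks the change of genes of low TPM, 107 and 226 did. By biotype, 449 of 11067 protein-coding genes, 23 of 442 lncRNAs, 23 of 274 pseudogenes and 13 of 62 small nucleolar RNAs (snoRNAs) fell, and 235, 16, 4 and 0 of them rose. For the same genes si#1 gave 191 rises (1.58%) and 478 falls (3.95%) against the same siNC library, so the siNC library enters both comparisons.

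The minimum of 100 cut through genes of small counting precision. The 5 members of lowest mean count were SAMD15, LINC02683, LINC02041, SNORD81 and LRP12, with log2 fold changes between -0.50 and 0.16. The 5 genes just under it were FNDC11, IQCK, ZBTB12, MBLAC1 and LOC402096, with values between -0.90 and 1.07.

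**Figure D2:**
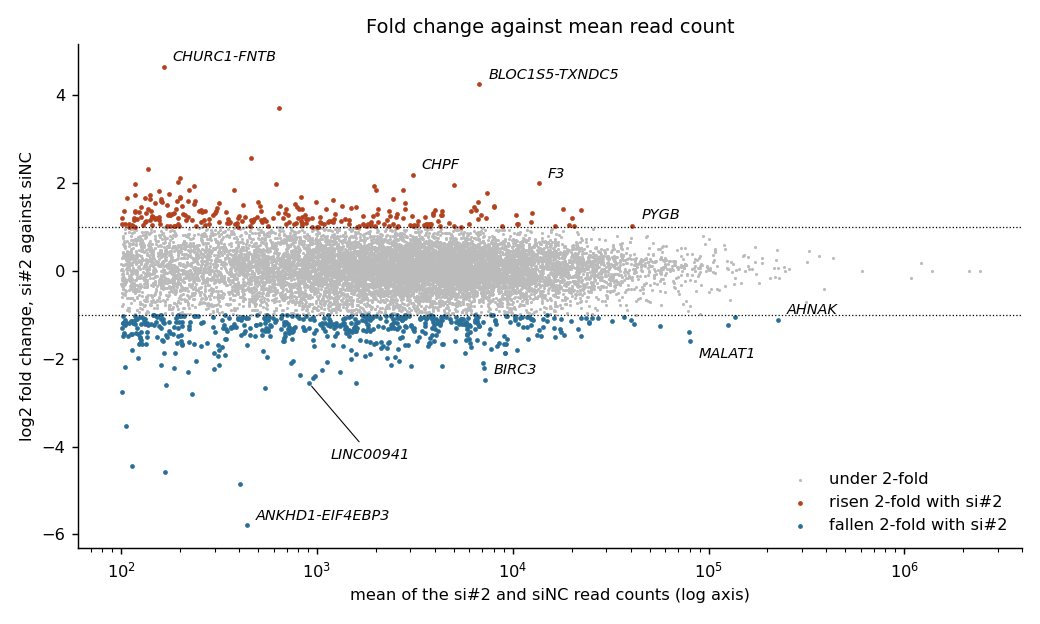
Log2 fold change of si#2 against siNC (vertical axis) against the mean of the 2 read counts (horizontal log axis) for the 12097 genes, with dotted lines at 2-fold. The 259 genes that rose and 524 that fell become fewer toward high counts, where AHNAK is the most abundant of them, and the points farthest from 0 are readthrough genes such as ANKHD1-EIF4EBP3 and CHURC1-FNTB.

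The 15 largest rises with si#2 came from genes of varied function. Ranked among protein-coding genes and lncRNAs that are not readthrough genes and that also passed on the TPM ratio, the first was MRGPRF, an orphan receptor gene of the MAS-related family, with 229 reads with si#2 against 44 with siNC (log2 fold change 2.32, 95% interval 1.85 to 2.82). CHPF, which encodes a factor needed to polymerize chondroitin sulfate chains, had 5057 reads with si#2 against 1111 with siNC (2.19, 2.10 to 2.28). CHST2, a carbohydrate sulfotransferase gene, had 317 against 72 reads (2.02). F3 encodes tissue factor, the membrane protein that starts the extrinsic coagulation pathway, and it had the highest TPM of these 15 rises. F3 had 21672 reads with si#2, 11657 with si#1 and 5567 with siNC (134, 74.4 and 40.1 TPM), which gave 1.99 (1.95 to 2.03) with si#2 against 1.04 with si#1.

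TOP1MT, the mitochondrial type I topoisomerase gene, had 7987 reads with si#2 against 2080 with siNC (log2 fold change 1.95), HS6ST1, which encodes a heparan sulfate 6-O-sulfotransferase, had 3125 against 879 (1.84), and STEAP3, an endosomal ferrireductase gene, had 4268 against 1216 (1.83). YWHAH, which encodes the eta form of the 14-3-3 phosphoprotein-binding proteins, had 11389 reads with si#2, 12003 with si#1 and 3401 with siNC (1.77 and 1.78). The placental alkaline phosphatase gene ALPP had 3079 reads with si#2, 1258 with si#1 and 817 with siNC (1.92 and 0.59). ALPP is nearly identical to its neighbour ALPG (log2 fold change 1.41), so reads of the pair may have been divided either way. The other rises among the first 15 were ZBTB46, PIGY, C16orf74, GPRASP2, SYNC and CPT1B, with log2 fold changes of 1.82 to 1.96. PIGY shares its transcript with another reading frame. CPT1B, the muscle form of the carnitine palmitoyltransferase that admits fatty acids to mitochondria, shares exons with the readthrough gene CHKB-CPT1B, which fell (-1.24), so its rise cannot be told apart from a different division of reads.

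The 15 largest falls, ranked in the same way, held LINC00941 itself and genes of varied function. N4BP2L2-IT2, an intronic lncRNA, led them with 26 reads with si#2 against 176 with siNC (log2 fold change -2.77, 95% interval -3.42 to -2.17). CCNK encodes cyclin K, the partner of CDK12 and CDK13 in phosphorylating RNA polymerase II, and had 150 reads with si#2, 226 with si#1 and 936 with siNC, a fall by 2.68 with si#2. CHIC1, a gene for a cysteine-rich membrane-associated protein, had 465 reads with si#2, 1405 with si#1 and 2691 with siNC (-2.56 and -0.99). BIRC3, which encodes the ubiquitin ligase cIAP2, an inhibitor of apoptosis and a target of NF-kB, had the highest TPM with siNC of the 15 largest falls (4.52 TPM with si#2 against 29.4 TPM with siNC). BIRC3 had 2187 reads with si#2, 3121 with si#1 and 12247 with siNC, and its log2 fold change with si#2 was -2.48 (-2.54 to -2.41).

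Several of the other large falls are transcription factor or kinase genes. USF3 had 308 reads with si#2 against 1595 with siNC (log2 fold change -2.45), RFX7, a factor of the regulatory factor X family, had 324 against 1618 (-2.39), and STAT4, a cytokine-activated factor, had 38 against 170 (-2.19). ELK4, which encodes an ETS factor that ERK phosphorylates at serum response elements, had 1564 against 7158 reads (-2.18). HIPK2, a nuclear kinase gene, had 2499 against 11750 reads (-2.21), and PEAK1, a pseudokinase gene of the cytoskeleton, had 447 against 2174 (-2.31). F5, coagulation factor V, had 275 reads with si#2, 326 with si#1 and 1356 with siNC (-2.36). The remaining ones were SEC16B, MGAM2 and the lncRNA LOC100190986 (-2.29 to -2.23). Of the 15 largest rises and 15 largest falls, all but ALPP, C16orf74, SYNC, CHIC1, SEC16B and STAT4 also passed 2-fold with si#1 in the same direction. Of all 259 rises 113 did, and of all 524 falls 281 did. Both siRNAs are set against the same siNC library, so a gene that is off in siNC alone would pass with both, and this is not a separate check.

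**Figure D3:**
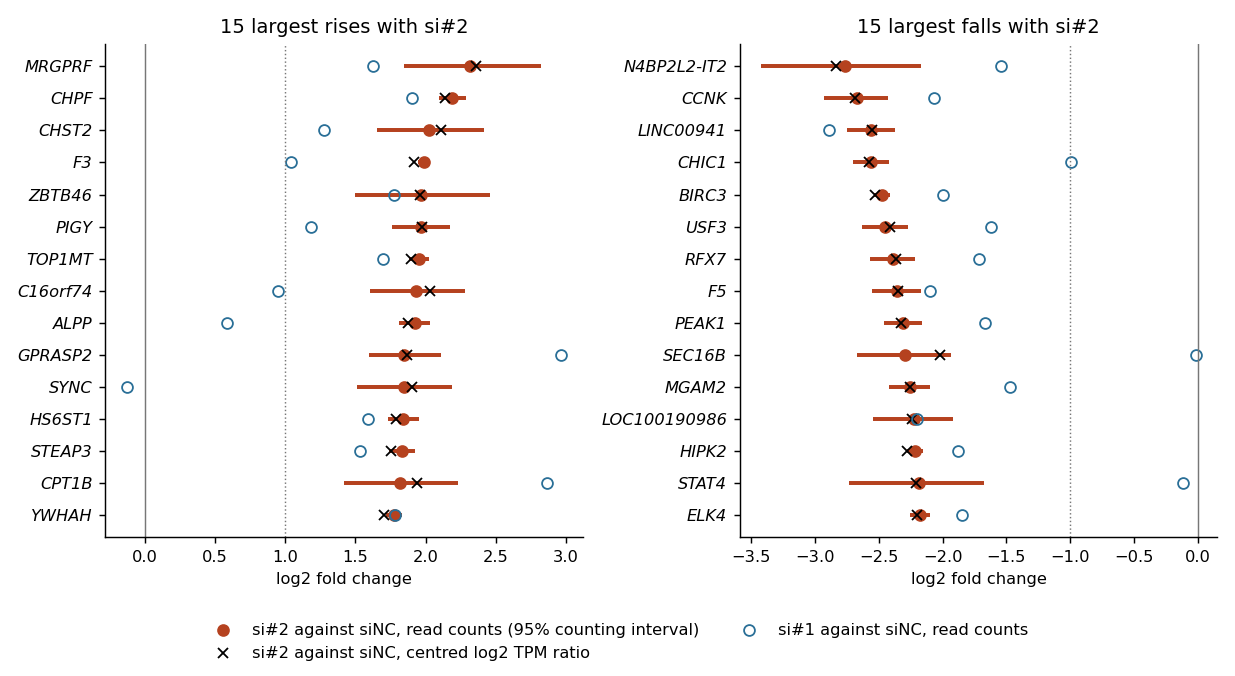
Log2 fold changes (horizontal axes) of the 15 genes with the largest rises and the 15 with the largest falls with si#2, from read counts with 95% counting intervals (filled points and bars), from the centred TPM ratio (crosses), and for si#1 against the same siNC library (open points). The filled points run from 1.77 to 2.32 and from -2.77 to -2.18, the crosses lie close to them, and the open points of SYNC, SEC16B and STAT4 lie near 0.

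The 8 most abundant genes that rose had log2 fold changes of 1.02 to 1.99, and the 8 most abundant that fell had -1.61 to -1.05. PYGB, the brain form of glycogen phosphorylase, had 55004 reads with si#2 against 26705 with siNC (log2 fold change 1.02). PPP1R14B, a phosphatase inhibitor gene, had 31690 against 12754 (1.38), TLN1, which encodes talin, the link between integrins and actin, had 27773 against 12363 (1.21), and GPC1, a heparan sulfate proteoglycan gene, had 27362 against 13891 (1.02). PKP3, DRAP1, PRC1 and F3 completed the 8 most abundant genes that rose. Of the 8 most abundant that fell, AHNAK, which encodes a giant scaffold protein, had 151575 reads with si#2 against 300623 with siNC (-1.11). The atypical cadherin gene FAT1 had 78375 against 172100 (-1.25), the nuclear lncRNA MALAT1 had 40281 against 119702 (-1.61), and VCAN, which encodes the matrix proteoglycan versican, had 44185 against 115073 (-1.39). ASPH, TRRAP, ROCK2 and SEMA3C were the others (-1.25 to -1.05). On the centred TPM ratio AHNAK, ASPH, PYGB, GPC1, DRAP1 and PRC1 were just under 2-fold. A gene that holds the same rank in both libraries has no change after quantile normalization. GAPDH (254760 reads with si#2 against 235687 with siNC) and the Pol III transcript RMRP (706463 against 515108) both had a log2 fold change of 0.00.

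The direction of change followed the base composition and the length of the transcript. Over 11715 members with a GENCODE transcript, Spearman's rho across genes between log2 fold change and GC content was 0.52 with si#2 and 0.36 with si#1, and between log2 fold change and length -0.36 and -0.32. These are descriptions across genes, which share 2 libraries and are not replicates. In 5 equal groups from lowest to highest GC content, the median log2 fold change with si#2 was -0.27, -0.12, 0.04, 0.20 and 0.41, and the share of genes that fell was 7.47%, 5.98%, 3.97%, 2.18% and 1.24%. By length, the shortest of 5 groups had a median of 0.22 and 1.92% of falls, and the longest, of 5658 bases or more, had -0.30 and 11.3%. Among 754 genes in both the group of lowest GC content and the longest group, 13.9% fell and 0.265% rose, whereas among 640 genes in both the group of highest GC content and the shortest group 0.625% fell and 5.31% rose. Chromosome 19, with a median GC content of 59.2%, had a median log2 fold change of 0.25, and chromosome 4, with 42.2%, had -0.11.

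A smooth trend with GC content and length took up 28.4% of the variance among genes with si#2 and 17.7% with si#1. With the trend removed, 167 of 11715 genes rose (1.43%) and 294 fell (2.51%), among them 119 of 253 genes that had risen and 243 of 488 that had fallen. LINC00941 (-2.64), CCNK (-2.75), BIRC3 (-1.98), F3 (2.06), CHPF (1.70) and YWHAH (1.65) remained past 2-fold. Of the most abundant genes named above, TLN1 (1.28), PRC1 (1.04) and MALAT1 (-1.09) remained past it with F3, and the others did not. With 1 library a side, a response of the cells that depends on GC content or length cannot be told apart from a difference between the libraries, so members of the groups described next that were under 2-fold once the trend was removed are named with most groups, and for the larger families the count past 2-fold is given.

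**Figure D4:**
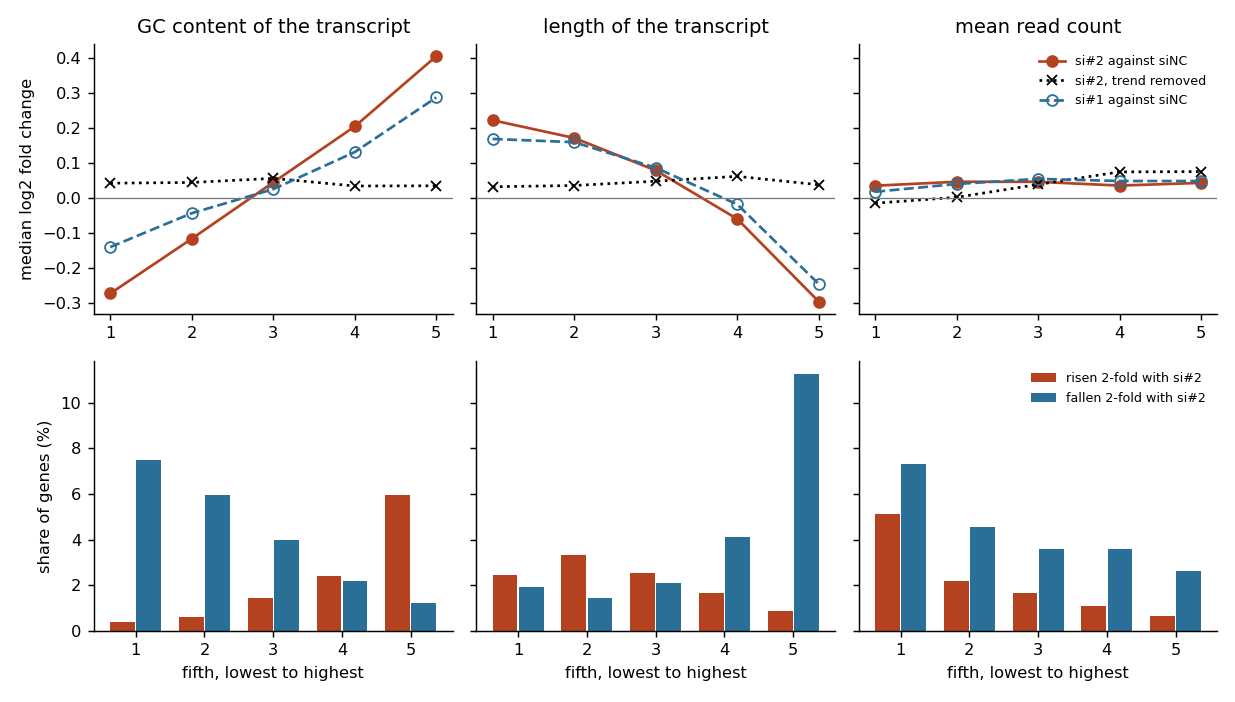
Median log2 fold change (upper row) and share of genes past 2-fold with si#2 in % (lower row) in 5 equal groups of GC content, transcript length and mean read count, each from lowest to highest. The medians with si#2 run from -0.27 to 0.41 over GC content and from 0.22 to -0.30 over length, with si#1 over a narrower range, and stay within 0.08 of 0 once the trend is removed.

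Genes named in the study were considered next, some for these siRNA libraries (such as E2F7, F3 and CD82), others for its other libraries (NEAT1), as controls or from work on other cancers (ANXA2, EP300 and the SMAD genes). Of 23 such genes 19 were members, and the rest were under the minimum count. Of the 19, 2 rose and 4 fell (10.5% and 21.1%, against 2.14% and 4.33% of all members). E2F7, a repressive E2F factor of the cell cycle, had 1425 reads with si#2, 1579 with si#1 and 3369 with siNC (log2 fold change -1.24 with si#2, -0.97 with the trend removed). CD82, a tetraspanin gene known as a metastasis suppressor, had 4345, 4404 and 2133 reads (1.04, and 0.73 with the trend removed). EP300, the histone acetyltransferase gene, had 1130, 1171 and 3508 reads (-1.63). NEAT1, the scaffold of paraspeckles, fell as well (-1.57, and -0.71 with the trend removed), as did LINC00941, and F3 rose. ANXA2, a calcium-dependent membrane-binding protein gene, had 98279 reads with si#2, 42571 with si#1 and 128251 with siNC, a log2 fold change of -0.45 with si#2 against -1.66 with si#1. SMAD2, SMAD3 and SMAD4 had 0.45, -0.87 and -0.70. E2F7, CD82 and F3 were chosen by the study in part on these libraries and LINC00941 is the siRNA target, so these counts are not independent evidence. The choice also drew on libraries with MAPK attenuated and on patient data. By qRT-PCR the study found that E2F7 followed LINC00941 in knockdown and forced expression. CD82 and F3 rose in both, and the study proposes that LINC00941 may not regulate them directly.

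Of 16 genes of coagulation and the urokinase system 4 rose and 2 fell, where 2.14% of all members rose and 4.33% fell, and their median log2 fold change was 0.24, against 0.04 over all members. PLAU, which encodes the plasminogen activator urokinase, had 17794 reads with si#2, 33635 with si#1 and 7305 with siNC (1.32 with si#2). PLAT, the tissue-type plasminogen activator gene, had 14562, 8031 and 6188 reads (1.27 with si#2 and 0.34 with si#1). The thrombin receptor gene F2R rose too (1.07). TFPI encodes the inhibitor of the tissue factor complex, and it had 3301 reads with si#2, 6910 with si#1 and 7728 with siNC (-1.21 and -0.20), so that the activator and the inhibitor of this step moved apart with si#2. F5 was the other fall. The 4 rises remained past 2-fold with the trend removed (1.15 to 2.06), and TFPI was at -0.85.

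Glycan synthesis genes were counted by pathway, against 2.14% risen and 4.33% fallen over all members. Of 31 genes of heparan and chondroitin sulfate synthesis 3 rose (9.68%) and 0 fell (median 0.15), namely CHPF, HS6ST1 and PXYLP1, a phosphatase gene acting on the linker sugar, which had 216 reads with si#2 against 63 with siNC (log2 fold change 1.73). Of 28 O-glycan, fucosyl and sialyl transferase genes, POMT1, which starts O-mannosylation (1.11), and FUT8, which adds core fucose (1.06), rose and 0 fell, and POMT1 was at 0.89 with the trend removed. Of 41 genes of N-glycan assembly and trimming, MOGS, the first trimming glucosidase, had 9237 reads with si#2 against 3439 with siNC (1.46), and B4GALT1, a galactosyltransferase gene, had 1641 against 3982 (-1.26), which is 2.44% in each direction. UGT1A7 (-1.92) and UGT1A6 (-1.12) were the falls among 4 measured UGT1A glucuronosyltransferase genes, which share exons.

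RAS proteins signal through RAF and MEK kinases to ERK, which phosphorylates ETS factors and induces its own inhibitors. Over all members 2.14% rose and 4.33% fell. Of 21 genes of this cascade 1 rose and 3 fell (4.76% and 14.3%). MAPK3, which encodes ERK1, had 1984 reads with si#2 against 712 with siNC (log2 fold change 1.48). The exchange factor gene SOS1 had 1105 against 2763 (-1.33), the RAS inactivator NF1 had 4271 against 10952 (-1.31), and BRAF had 1713 against 3711 (-1.10). Both activators and an inhibitor of the cascade were thus lower, and these 3 falls lay between -0.85 and -0.71 with the trend removed, while MAPK3 was at 1.07. KSR1 (-0.98) was at -1.03 then. Of 23 ERK feedback and immediate early genes EGR1 (-1.16) and SPRY1 (-1.02) fell (8.70%) and 0 rose, with a median of 0.24. ELK4, EHF (-1.05) and ELK3 (-1.04) fell among 17 ETS factor genes (17.6%), whereas ETS1 and ELK1 had 0.03 and 0.04. With the trend removed EHF (-0.74), ELK3 (-0.86) and SPRY1 (-0.98) were under 2-fold. Of 17 receptor tyrosine kinase and ligand genes IGF1R alone passed (-1.03), which is 5.88%, and it was at -0.67 with the trend removed. EGFR had 27887 reads with si#2 against 48205 with siNC (-0.78).

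None of 40 S phase and replication genes passed 2-fold, where 2.14% of all members rose and 4.33% fell. TYMS (-0.91) and POLD1 (0.89) were the farthest. Among 49 G2 and M phase genes, the proliferation marker MKI67 had 11579 reads with si#2 against 33230 with siNC (log2 fold change -1.48), ASPM, a spindle pole gene, had 14938 against 32136 (-1.07), and PRC1, which bundles microtubules of the central spindle, had 21833 against 11045 (1.02). Of these 49 genes 2.04% thus rose and 4.08% fell. Their median was -0.21 with si#2, 0.03 with si#1 and -0.01 with the trend removed. Of 13 genes of the E2F and RB family E2F7 and TFDP2 fell (15.4%), and E2F1 had 0.55. ASPM (-0.42), E2F7 (-0.97) and TFDP2 (-0.62) were under 2-fold with the trend removed. REV3L (-1.19) and BRCA2 (-1.13) fell among 27 DNA repair genes (7.41%), and neither stayed past 2-fold with the trend removed. Of the 27 genes 23 were below 0 (median -0.35, and -0.09 with the trend removed), where 5586 of the 12097 members were.

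Beside BIRC3, APAF1, the core of the apoptosome, had 1809 reads with si#2 against 5714 with siNC (log2 fold change -1.64). A blocker and a mediator of apoptosis were thus the 2 falls among 21 regulators (9.52%). Over all members 4.33% fell and 2.14% rose. FAS, the death receptor gene, had 830 reads with si#2, 1826 with si#1 and 1915 with siNC (-1.22 and -0.13), and BBC3, which encodes the BH3-only protein PUMA, had 257, 151 and 99 reads (1.27 and 0.55). These were the 2 changes among 21 p53 targets, 4.76% in each direction. REL (-1.39) fell with BIRC3 among 24 NF-kB genes (8.33%). In the integrated stress and unfolded protein responses, HSPA5, the chief chaperone of the endoplasmic reticulum, had 11139 reads with si#2 against 23952 with siNC (-1.09), while PPP1R15A (1.06) and TRIB3 (1.01) rose. Of 27 genes of these responses 3.70% thus fell and 7.41% rose. OAS2, an interferon-induced sensor of double-stranded RNA, fell (102 against 305 reads, -1.67), as 1 of 32 such genes (3.13%). Of these 22 were below 0 and 0 rose, and 0 of 15 heat shock genes passed. Removal of the trend left FAS (-0.96), BBC3 (0.67), REL (-0.76), PPP1R15A (0.74) and TRIB3 (0.63) under 2-fold.

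Of 24 genes of H3K4 methyltransferases and their COMPASS subunits 6 fell (25.0%, against 4.33% of all members) and 0 rose (median -0.31, against 0.04 over all members). The methyltransferase genes KMT2A (3997 reads with si#2 against 12920 with siNC, log2 fold change -1.64), KMT2D (1930 against 5642, -1.52) and KMT2C (4008 against 11114, -1.43) fell with SETD1B (-1.38), the coactivator gene NCOA6 (-1.38) and KMT2E (-1.09). With the trend removed, KMT2A, KMT2D, SETD1B and NCOA6 remained past 2-fold and KMT2C (-0.76) and KMT2E (-0.69) did not. Of 23 genes of histone acetyltransferases and their scaffolds 5 fell (21.7%). These were EP300, EP400 (-1.59), TRRAP (33215 against 79964 reads, -1.25), CREBBP (-1.16) and BRPF3 (-1.13), and KAT5, which encodes the TIP60 acetyltransferase, rose (6030 against 2549 reads, 1.26). ARID1A (-1.35), SRCAP (-1.32) and CHD7 (-1.15) fell among 30 remodeller genes, of which 24 were below 0 and 10.0% fell. TRRAP (-0.90), CREBBP (-0.96), KAT5 (0.95) and CHD7 (-0.72) were under 2-fold with the trend removed. The median of the acetyltransferase list was -0.28 before and -0.06 after removal of the trend.

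POLR2A, the largest subunit of RNA polymerase II, had 3088 reads with si#2 against 8635 with siNC (log2 fold change -1.45, and -1.47 with the trend removed), and with CCNK it made up the 2 falls among 20 genes of transcriptional cyclins, kinases and partners. MED14 (-1.37) and MED21 (-1.04) fell among 32 Mediator genes (6.25%, against 4.33% of all members), at -0.95 and -0.78 with the trend removed. KDM6B fell (-1.18) among 17 genes of histone demethylases and PRC2, and SUZ12, a subunit of PRC2, had -0.96.

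In the beta-catenin and TCF complex, TCF7L2, the DNA-binding factor, had 440 reads with si#2 against 1796 with siNC (log2 fold change -2.07), BCL9L, a beta-catenin coactivator gene, had 1358 against 4483 (-1.70), and APC (-1.13) and BCL9 (-1.06) also fell, 4 of 19 with 0 up. Among 14 Wnt targets the surface genes CD44 (14871 against 34167 reads, -1.16) and LGR5 (-1.05) fell. SPEN (-1.43), a corepressor, and MAML2 (-1.36), a coactivator, fell among 17 Notch genes, MOB1B, FAT1, TAOK1 and PTPN14 (-1.33 to -1.13) among 28 Hippo genes, none of the last 4 past 2-fold with the trend removed. APC (-0.55), CD44 (-0.93) and LGR5 (-0.87) were not past it then either. BMPR2, the type II receptor for bone morphogenetic proteins, had 1012 reads with si#2 against 4233 with siNC (-2.05), and TGFBR2, the receptor that binds TGF-beta, had 9833 against 25184 (-1.33). TGFBR3 fell too (-1.06), and the ligand gene TGFB1 rose (725 against 326 reads, 1.10). These were the 3 falls and 1 rise among 25 genes of the TGF-beta and SMAD list, where 4.33% of all members fell and 2.14% rose. The median of the list was 0.05, and TGFBR3 (-0.76) and TGFB1 (0.69) were under 2-fold with the trend removed. Conversely, SMAD2 (0.45) and the ligand gene TGFB2 (0.97) were past it only then, at 1.66 and 1.27. The SMAD2 transcript, of 34626 bases, is the longest in the fit, so its trend-removed value rests on the far end of the trend.

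Lists of cell surface genes were small, and over all members 2.14% rose and 4.33% fell. Among mucins 3 of 4 fell. MUC17 had 1016 reads with si#2 against 3979 with siNC (log2 fold change -1.96), MUC13 had 1042 against 3221 (-1.63) and MUC1 had 384 against 1102 (-1.55), and MUC12, the other of 4 measured mucin genes, had 0.45. These membrane mucins stayed past 2-fold with the trend removed (-1.89 to -1.47). AGR2, a disulfide isomerase gene needed for mucin folding, had 3578 against 9212 reads (-1.33) and was with MUC1 the fall among 18 duct and epithelial markers. PKP3, a desmosomal plakophilin gene, had 26066 reads with si#2 against 9950 with siNC (1.41), and DSC2 (-1.10) and CLDN1 (-1.01) fell, among 22 genes of junctions. ITGB8 fell (-1.34) and TLN1 rose among 25 genes of laminins, hemidesmosomes and integrins. CD82 alone of 16 tetraspanin genes passed, in a list whose median was 0.38, and ANXA13 (-1.08) alone of 18 annexin and S100 genes. The 8 keratin genes measured stayed under 2-fold. With the trend removed PKP3 (0.93), DSC2 (-0.44), CLDN1 (-0.83), ITGB8 (-0.81) and CD82 (0.73) did too.

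Metabolic genes encoded in the nucleus were mostly under 2-fold. None of 30 genes of cholesterol and fatty acid synthesis passed, PDK1 (-1.18, and -0.47 with the trend removed) was the fall among 22 glycolysis genes and CPT1B the rise among 19 of fatty acid oxidation. Of 57 nuclear genes of the respiratory chain 53 were above 0, with a median of 0.33, and SDHC alone passed (2743 reads with si#2 against 5805 with siNC, log2 fold change -1.06). All 13 measured genes of the mitochondrial genome lay below 0, with a median of -1.07, and 7 fell (53.8%, against 4.33% of all members). None of them had a trend-removed value, so the trend could not be taken out of these falls. RNR2, a ribosomal RNA gene, was among the falls (304 reads with si#2 against 737 with siNC, -1.35). Ribosomal RNA was depleted from these libraries, so its reads may be a residue and not its level in the cells. COX1, a subunit of cytochrome c oxidase, had 17307 reads with si#2, 18882 with si#1 and 36969 with siNC (-1.07), and ND3 of complex I had 136, 172 and 411 (-1.66). Mitochondrial genes took 0.0515% of the reads with si#2, 0.0568% with si#1 and 0.0943% with siNC, and the part of these shares in the falls was not tested. PSME4, a proteasome activator gene, fell among 38 proteasome genes (4320 against 14184 reads, -1.67).

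Of 8 measured abundant nuclear lncRNAs, MALAT1, KCNQ1OT1 (346 reads with si#2 against 1010 with siNC, log2 fold change -1.60), NEAT1 and TUG1 (3329 against 7901, -1.22) fell, whereas NORAD, a mainly cytoplasmic lncRNA on the same list, had 60500 against 35374 reads (0.77). The proteins of nuclear speckles SRRM2 (4232 against 13880 reads, -1.66), SON (8441 against 24238, -1.51) and SRRM1 (-1.28) fell among 24 such genes and stayed past 2-fold with the trend removed. NEAT1 (-0.71) and TUG1 (-0.86) did not. None of 13 paraspeckle protein genes passed. Of 36 C/D box snoRNAs 7 fell and of 38 H/ACA box snoRNAs and Cajal body RNAs 6 did (19.4% and 15.8%, against 4.33% of all members), with 0 up in each. Trend-removed values were past 2-fold downward in 1 of 29 and 1 of 34 with a value. The median lengths in these lists are 89 and 139 bases, and how evenly RNAs this short were kept in the 2 libraries is not known. Lower counts here are thus not shown to be lower levels in the cells. SNORD133 was the most abundant of these falls, with 602 reads with si#2 against 1648 with siNC (-1.48), and the rest had 52 to 167 reads with si#2. Their medians were -0.28 and -0.25, and 0.13 and 0.01 with the trend removed. None of 21 snoRNA host genes passed.

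None of 81 cytosolic ribosomal protein genes passed 2-fold and 75 of them were above 0 (median 0.15), and none of 61 replication-dependent histone genes did (median 0.17). Transcripts of very large proteins lay at the other end, with VPS13C, VPS13B, UBR4 and AHNAK falling (-1.37 to -1.11) and TLN1 rising among 27 genes. Their median of -0.71 became -0.09 with the trend removed, the largest move among the lists of at least 10 members that have trend-removed values, and all 4 falls were then under 2-fold. Zinc finger genes of the ZNF family, 357 in all, had 4 rises (1.12%, against 2.14% of all members) and 12 falls (3.36%, against 4.33%), led by ZNF507 (945 reads with si#2 against 2982 with siNC, log2 fold change -1.66). Of 356 with trend-removed values, 4 were then past 2-fold upward and 5 downward. Of 42 USP deubiquitinase genes 5 fell, with USP46 (601 against 2379 reads) and USP12 (-1.64) first, and USP27X rose. USP34 (-0.56), USP54 (-0.86) and USP27X (0.92) were under 2-fold with the trend removed.

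Of 15 genes of the machinery that siRNAs and microRNAs use 3 fell, where 4.33% of all members did, and 0 rose. TNRC6B, which recruits deadenylases to Argonaute proteins, had 2109 reads with si#2, 1884 with si#1 and 6701 with siNC (log2 fold change -1.67 with si#2). DICER1, which encodes the nuclease that cuts microRNA precursors, had 6922, 8070 and 19533 reads (-1.47), and DROSHA, the nuclear nuclease gene, had 2292, 1912 and 5962 (-1.36). These were the 3 falls, and AGO2 had 7211 reads with si#2 against 14494 with siNC (-0.98). With the trend removed, DROSHA alone of these remained past 2-fold (-1.18).

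**Figure D5:**
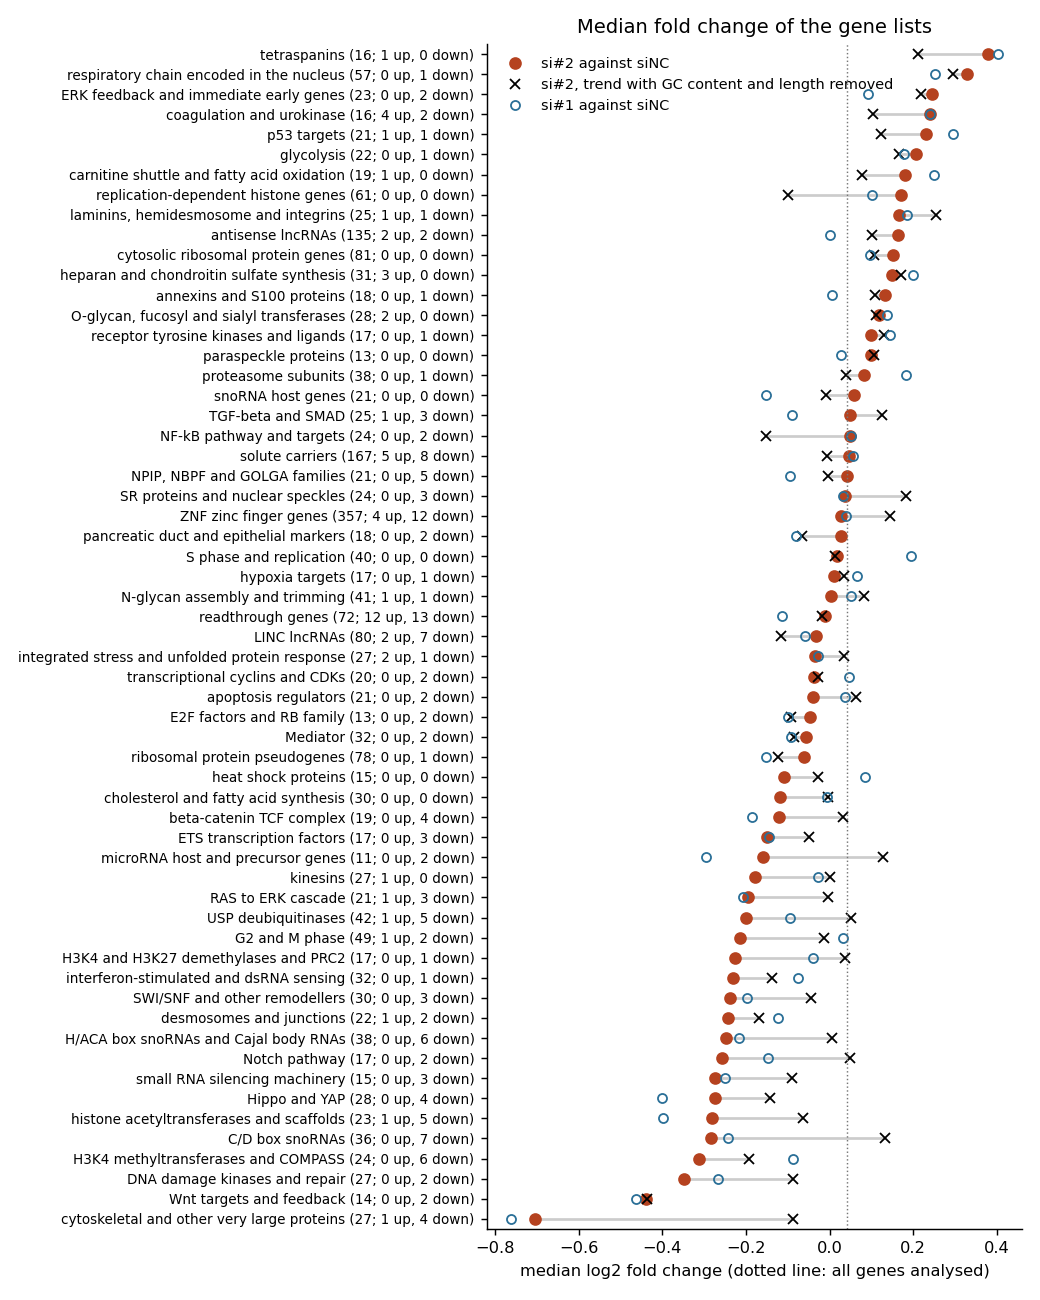
Median log2 fold change (horizontal axis) of the gene lists with at least 10 members and trend-removed values, for si#2 against siNC, for the same with the trend in GC content and length removed, and for si#1 against the same siNC library, with the number of members and of genes past 2-fold beside each name. Medians with si#2 run from 0.38 for the tetraspanins to -0.71 for very large proteins, whose median is -0.09 with the trend removed.

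Readthrough genes, which join exons of 2 neighbouring genes, held the most extreme values and the least certain ones. Of 72 measured, 12 rose (16.7%, against 2.14% of all members) and 13 fell (18.1%, against 4.33%) with si#2, and of 49 with trend-removed values 8 were past 2-fold in each direction. ANKHD1-EIF4EBP3 had 15 reads with si#2, 2697 with si#1 and 860 with siNC (-5.79 on the log2 scale with si#2, against 1.60 with si#1), and BLOC1S5-TXNDC5 had 12822, 181 and 686 reads (4.24 and -1.95). CHURC1-FNTB had 318, 221 and 12 reads (4.64 and 4.16). Such opposite values stand in genes whose reads can also be assigned to their partners, and whether they follow the division of reads was not tested. The NPIP, NBPF and GOLGA families, which are segmental duplicates with near-identical sequence, had 5 falls among 21 genes, all of them NPIPB genes (NPIPB4, 96 against 385 reads, -2.06).

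Matches to the si#2 seed were counted in the 3′ UTRs, since these could pair with the guide beside its target. The letters TGAACAT were sought on the transcript strand only. They were present in 1671 of 10915 members with an annotated 3′ UTR (15.3%). Genes with a match had a median log2 fold change of -0.26 with si#2 and 10.1% of them fell, against 0.10 and 2.86% for genes without one. Genes with more matches had lower medians, which were -0.23, -0.38 and -0.56 for genes with 1, 2 and 3 or more matches. With si#1 the medians of these genes were -0.15, -0.21 and -0.39, their 3′ UTRs had median lengths of 2890, 4645 and 6904 bases, and with the trend removed the si#2 medians were 0.01, -0.02 and -0.06. All genes with the si#2 match had a median of -0.17 with si#1, against 0.09 for genes without it. The si#1 guide has another seed, but its match, CATGAAC, shares the letters TGAAC with that of si#2, so the 2 seeds are not unrelated. The difference between the 2 siRNAs had a median of -0.07 with the si#2 match and 0.01 without. Genes with a match had longer 3′ UTRs (median 3232 against 1093 bases) and lower GC content (41.9% against 50.0%), and with the trend removed their median was 0.00, against 0.05. In the longest of 5 groups of 3′ UTRs the medians were -0.32 with a match and -0.15 without for si#2, and -0.21 and -0.11 for si#1.

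Of the 15 largest falls 12 had an annotated 3′ UTR, and 7 of these held the si#2 seed match and 2 the si#1 match, at a median UTR length of 4180 bases. Among all 433 falls with a 3′ UTR the shares were 39.0% and 18.9%, and among all members 15.3% and 9.58%. Of the 15 largest rises 2 of 15 held the si#2 match, at 880 bases. The windows of CHIC1, BIRC3, USF3, PEAK1, HIPK2 and ELK4 are shown because these are the largest falls with a match and a full window. Each is aligned to the si#2 target by the match, which is in capitals, and where a gene has 2 matches the one with more bases equal to the target is given.
CHIC1 (chrX:73684497-73684515, plus strand): acctcactactTGAACATa
BIRC3 (chr11:102337249-102337267, plus strand): tctaaaccataTGAACATa
USF3 (chr3:113649938-113649956, minus strand): gcctttttggcTGAACATt
PEAK1 (chr15:77109849-77109867, minus strand): taaatatagtaTGAACATt
HIPK2 (chr7:139566813-139566831, minus strand): gatccctgtgtTGAACATg
ELK4 (chr1:205609025-205609043, minus strand): accgtcaagtaTGAACATc
Of the 19 bases these windows shared 8 to 11 with the target, 7 of them the match itself. All 6 were lower with si#2 than with si#1, by 1.57 for CHIC1, 0.83 for USF3, 0.64 for PEAK1, 0.48 for BIRC3, 0.34 for HIPK2 and 0.33 for ELK4 on the log2 scale. They were picked from the largest falls with si#2, a choice that favours lower values with si#2. The falls among the 15 whose 3′ UTR held no match were lower too. Their si#2 minus si#1 values were -2.28 for SEC16B, -2.07 for STAT4, -0.79 for MGAM2, -0.68 for RFX7 and -0.61 for CCNK. A match is a description of letters and not a site of action.

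Some changes were seen with si#2 and not with si#1, although both lowered LINC00941. Between the siRNA libraries, 92 members were higher with si#2 than with si#1 by 2-fold (0.761%) and 84 were lower (0.694%). Genes that also passed 2-fold against siNC in the same direction were chosen here after their values were seen. SYNC, which encodes the intermediate filament protein syncoilin, had 353 reads with si#2, 88 with si#1 and 92 with siNC (log2 fold change against siNC 1.84 with si#2 and -0.13 with si#1). SEC16B, a gene of endoplasmic reticulum exit sites, had 77, 374 and 361 reads (-2.29 and -0.02). HMGA2, an architectural chromatin protein gene, had 5977, 13802 and 18001 reads (-1.56 and -0.39), and FAM3C, which encodes a secreted cytokine-like protein, had 16224, 39842 and 34844 (-1.07 and 0.16, and -0.87 with si#2 once the trend was removed). Of 72 genes lower with si#2 than with si#1 that had a 3′ UTR, 17 held the si#2 seed match (23.6%) and 7 the si#1 match (9.72%). Of 61 genes higher with si#2, 11 held the si#2 match and 10 the si#1 match, and among all members with a 3′ UTR the shares were 15.3% and 9.58%. The median UTR length was 1825 bases in the genes lower with si#2, 1045 bases in those higher with si#2 and 1330 bases in all.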

How the data were processed

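The 3 libraries, 1 per condition, came from total RNA of AsPC-1 cells and a stranded kit with depletion of ribosomal RNA. The authors aligned paired reads to GRCh38 with HISAT2 and assigned them to annotated genes by StringTie, and neither tool version nor the use of strand in counting is given in the sources used here. Deposited values are read counts and TPM for 16463 genes, each of which has 1 read or more in all libraries, and the authors' normalized log2 values, which quantile-normalized log2(read count + 1) matched within 5e-09. Columns headed FPKM repeat the read counts, and 21 columns of per-sample values, those of a second sheet included, were not used, nor were the authors' fold changes and volumes.

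Fold changes were computed from the counts, with TPM as a check. The 95% intervals (Clopper-Pearson, exact) come from the share of si#2 reads among both counts of a gene, shifted by the normalization. No test across genes was run. Transcript length, GC content and 3′ UTRs came from Ensembl canonical transcripts of GENCODE on GRCh38, and biotypes from the deposited table. The trend with GC content and log2 length, cubic in each and fitted by least squares, was added after the data were seen. Members and gene lists were chosen with earlier results of these data known. The named genes are those the study names, the 15 largest rises and falls, up to 5 of the largest changes per list, the 8 most abundant genes past 2-fold in each direction and the 5 on each side of the minimum count. Further list members past 2-fold, KRT8 and ALPG were named after their values were seen. Some items are not reported here. The code behind the calls was checked on simulated counts of known fold, which says nothing of the spread between cultures. Python 3.11.15 ran scipy 1.17.1, pandas 2.3.3, numpy 2.4.6 and matplotlib 3.10.9, and edgeR 4.0.16 and DESeq2 1.42.0 in R 4.3.3 gave scaling factors only.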

Additional observations from a re-analysis of the deposited data

Results flagged for a closer look

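Among the named genes and the genes that differed 2-fold between the siRNA libraries, 11 met the following. The change with si#2 passed 2-fold and the change with si#1 went the other way, with counting intervals on either side of 0. Both are set against the same siNC library, each is 1 library, and the difference was not tested. Of these, 5 are readthrough genes. ANKHD1-EIF4EBP3 had a log2 fold change of -5.79 with si#2 and 1.60 with si#1, JMJD7-PLA2G4B had -4.58 and 0.30, and MICOS10-NBL1 had -4.45 and 0.51. BLOC1S5-TXNDC5 had 4.24 and -1.95, and BLOC1S1-RDH5 had 1.07 and -1.20. The other 6 do not join neighbours. FAM3C had -1.07 with si#2 and 0.16 with si#1, and RDH10, a retinol dehydrogenase gene, had 2560 reads with si#2, 6590 with si#1 and 5272 with siNC (-1.02 and 0.28). ZDHHC11, a palmitoyltransferase gene, had -1.03 and 0.47, SERAC1, a gene of phospholipid remodelling, had -1.04 and 0.35, and the centrosomal gene CEP97 had -1.02 and 0.17. JPH2, a junctophilin gene, had 526 reads with si#2, 195 with si#1 and 239 with siNC (1.06 and -0.38).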

How the results depend on the processing

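No paired analysis was possible because each condition has 1 library. LINC00941 stayed past 2-fold in every setting that gave it a value, between -2.64 with the trend in GC content and length removed and -2.07 on quantile-normalized log2(TPM + 1). Quantile normalization of si#2 and siNC alone, TMM, DESeq2 size factors, the total read count, the centred TPM ratio, a pseudocount of 10 and protein-coding genes alone gave 235 to 256 rises and 449 to 597 falls, against 259 and 524. The counts moved by over 1.5 times under other settings. On log2(TPM + 1) 108 genes rose and 243 fell. With no minimum count 904 rose and 1181 fell, and with a minimum of 500 there were 144 rises. A threshold of 1.5-fold gave 1291 rises and 1489 falls, and one of 3-fold gave 36 and 105. Counting intervals wholly past 2-fold held for 136 rises. Removal of the trend, added after seeing the data, left 167 rises and 294 falls, and leaving out readthrough genes, also added then, 247 and 511.

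Of 239 named genes past 2-fold, 229 to 236 stayed past it under the other scalings, the centred TPM ratio and a pseudocount of 10, but 123 on log2(TPM + 1), and none changed sign there. With the trend removed, 127 of 220 did, and the other 93 did not. TMM, DESeq2 size factors, total count and the centred TPM ratio shifted the median of all members by -0.03 to -0.04 on the log2 scale. Counting intervals excluded 0 in all 783 genes past 2-fold, which the minimum count and the threshold fixed in advance. The spread between replicate cultures is unknown.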
